A study of Mus musculus with 17 samples.

Results

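MHC class II presentation genes were followed in tumor cells and in 2 macrophage populations of mouse lung tumors with and without an inducible deletion of Gpx4. The 9 members were taken by name: the chain genes H2-Aa, H2-Ab1 and H2-Eb1, the invariant chain Cd74, the peptide-editing subunits H2-DMa and H2-DMb1, the H2-DM inhibitor subunits H2-Oa and H2-Ob, and the transcriptional regulator Ciita. They are 9 of the 17555 gene names found in any of the 3 deposited expression tables. Of the 9 members, 8 were listed for tumor cells (all but H2-Oa), 9 for TRMs and 7 for MDMs (all but H2-Oa and H2-Ob).

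KL mice carried Cre-activated tumor-forming alleles, with Lkb1 floxed on both chromosomes (Lkb1fl/fl). KLG4 mice carried the same alleles and were homozygous for a modified Gpx4 allele (Gpx4m/m), in which rox sites flank exons of Gpx4 and a tamoxifen-dependent Dre recombinase is placed behind a stop cassette that Cre removes. All mice were on a C57BL/6 background, received intranasal adenovirus encoding Cre (Ad-Cre), which can act in any cell it infects, and were then given tamoxifen, so that KL and KLG4 differed in the Gpx4 allele and shared every agent. Tumor cells, TRMs (tissue-resident macrophages) and MDMs (monocyte-derived macrophages) were isolated 10 weeks after Ad-Cre and profiled by bulk RNA sequencing, with 2 libraries for each genotype and population, 12 in all. The tumor cell libraries came from 2 mice of each genotype, and for TRMs and MDMs it was not given in the sources used here whether a library came from 1 animal or from several, so that p-values there measure only the spread between libraries. The sort of tumor cells used EpCAM, CD45 and CD31, and the gates for TRMs and MDMs were not given in the sources used here, so it is not known whether the class II protein itself served to gate them.

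MHC class II molecules are heterodimers of an alpha and a beta chain that display peptides from endosomes to CD4+ T cells. The invariant chain CD74 escorts them from the endoplasmic reticulum and blocks the groove, endosomal proteases trim it, H2-DM exchanges its remnant for peptide, and H2-O holds H2-DM back. CIITA is the coactivator that most class II transcription depends on, and it acts through RFX, NF-Y and CREB bound at a conserved promoter module. In the lung, B cells, dendritic cells and macrophages carry class II, and so do alveolar type II (AT2) cells, the epithelial cells from which such tumors commonly arise. In C57BL/6 mice the I-E alpha chain gene is defective, so H2-Eb1 transcript is made without a partner for its protein.

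The module is visible in the sequence before the start of several members, which is why these stretches are shown. Promoter windows of RefSeq (build GRCm38.p6), 250 bases before to 50 after a start, matched 6 of the 9 members; H2-Ab1, Cd74 and Ciita had none. In each stretch of 130 bases, which ends at the base before the RefSeq start, capitals mark the letters CCAAT, the NF-Y site or Y box (ATTGG where it lies on the opposite strand), and AGCAAC, part of the RFX site or X box. The RefSeq start is that of the gene annotation in H2-Aa and H2-Eb1, and it lies inside the gene as annotated by 119 bases in H2-DMb1, by 39 in H2-Oa and by 2 in H2-Ob, so that those stretches reach past the annotated start. The 2 windows of H2-DMa lay upstream of the gene as counted in the table and are not shown.
H2-Aa (chr17:34287824-34287953, minus strand): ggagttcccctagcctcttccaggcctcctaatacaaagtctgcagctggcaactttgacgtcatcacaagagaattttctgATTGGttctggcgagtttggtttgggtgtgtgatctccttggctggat
H2-Eb1 (chr17:34305737-34305866, plus strand): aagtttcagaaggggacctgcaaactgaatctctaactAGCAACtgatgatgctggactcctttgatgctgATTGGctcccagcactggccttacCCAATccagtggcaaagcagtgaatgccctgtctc
H2-DMb1 (chr17:34153061-34153190, plus strand): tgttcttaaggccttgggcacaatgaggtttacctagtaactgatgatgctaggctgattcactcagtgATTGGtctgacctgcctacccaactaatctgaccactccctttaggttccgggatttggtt
H2-Oa (chr17:34092249-34092378, plus strand): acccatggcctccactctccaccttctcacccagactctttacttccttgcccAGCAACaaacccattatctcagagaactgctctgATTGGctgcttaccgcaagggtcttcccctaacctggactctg
H2-Ob (chr17:34238775-34238904, plus strand): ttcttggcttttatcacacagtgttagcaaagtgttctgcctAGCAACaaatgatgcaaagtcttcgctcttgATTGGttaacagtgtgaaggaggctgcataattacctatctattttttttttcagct

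CCAAT, searched on both strands, was present in a window of all 6 matched members and in 37.4% of the 32817 windows of the whole RefSeq table. The ATTGG nearest the RefSeq start began 48 bases before that start in H2-Aa, 59 in H2-Eb1, 61 in H2-DMb1, 43 in H2-Oa and 57 in H2-Ob, and in H2-DMa 198 bases before the RefSeq start in 1 of its windows. AGCAAC was found in H2-Eb1, H2-Oa and H2-Ob, and in 14.8% of all windows. The order AGCAAC and then ATTGG, with 15 to 40 bases from start to start, was chosen after these windows had been seen; it was present in those 3 members and in 0.198% of all windows, 65 of them. A match of letters is a description of the window and does not show that a factor was bound.

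Values are RPKM, which divide the reads of a gene by its length and by the depth of the library, so levels can be set against each other between genes. Differences are KLG4 minus KL on the log2(RPKM + 0.1) scale with their standard error (SE), from limma fitted to all genes of a table that reached 1 RPKM in 2 or more of its 4 libraries, and p-values were adjusted over all those genes by the Benjamini-Hochberg method. A gene was called at an adjusted p under 0.05.

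Depth ran from 9.14 to 36.6 megareads per library. Gpx4, the targeted gene, was at 95.0 and 76.8 RPKM in KL and 56.4 and 61.9 RPKM in KLG4 tumor cells, at 89.8 and 88.2 RPKM in KL and 53.8 and 57 RPKM in KLG4 TRMs, and at 44.9 and 71.3 RPKM in KL and 93.6 and 97.7 RPKM in KLG4 MDMs. Exons of Gpx4 outside the rox sites contribute to these values. The summed level of 10 AT2 markers was 3707 and 4163 RPKM in KL tumor cells and 1300 and 1324 RPKM in KLG4 tumor cells, and in the macrophage libraries it lay between 37.5 and 396 RPKM. The 10 alveolar macrophage markers summed to between 9151 and 13540 RPKM in TRMs and between 1413 and 2601 RPKM in MDMs. The markers of monocyte-derived macrophages summed to between 88.2 and 356 RPKM over 10 genes in MDMs and between 57.0 and 152 RPKM over the 9 genes in the TRM table, ranges that overlap, and Ccr2, the monocyte chemokine receptor, was at 1.31 to 8.70 RPKM in MDMs and 0.769 to 7.84 RPKM in TRMs. MDMs were thus set apart from TRMs by lower alveolar macrophage markers more than by their own list.

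Class II transcripts were most abundant in TRMs. Of the 7 members present in all 3 tables, all 7 had their 4 highest libraries among the TRMs. The listed members of a library (9 in TRMs, 7 in MDMs and 8 in tumor cells) summed to between 5642 and 7820 RPKM in TRMs, between 807 and 2369 RPKM in MDMs, between 1472 and 1541 RPKM in KLG4 tumor cells and between 357 and 435 RPKM in KL tumor cells. The order below TRMs was not settled by these libraries, because the KLG4 tumor cells lay inside the range of the 2 KL MDM libraries for H2-Aa, H2-Ab1, H2-Eb1, Cd74 and H2-DMa. KL tumor cells were lowest for 6 of the 7, and Ciita overlapped between KL and KLG4 tumor cells, all 4 libraries below the 0.554 to 1.28 RPKM of the MDMs. The plot of the members by library shows both features.

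**Figure D1:**
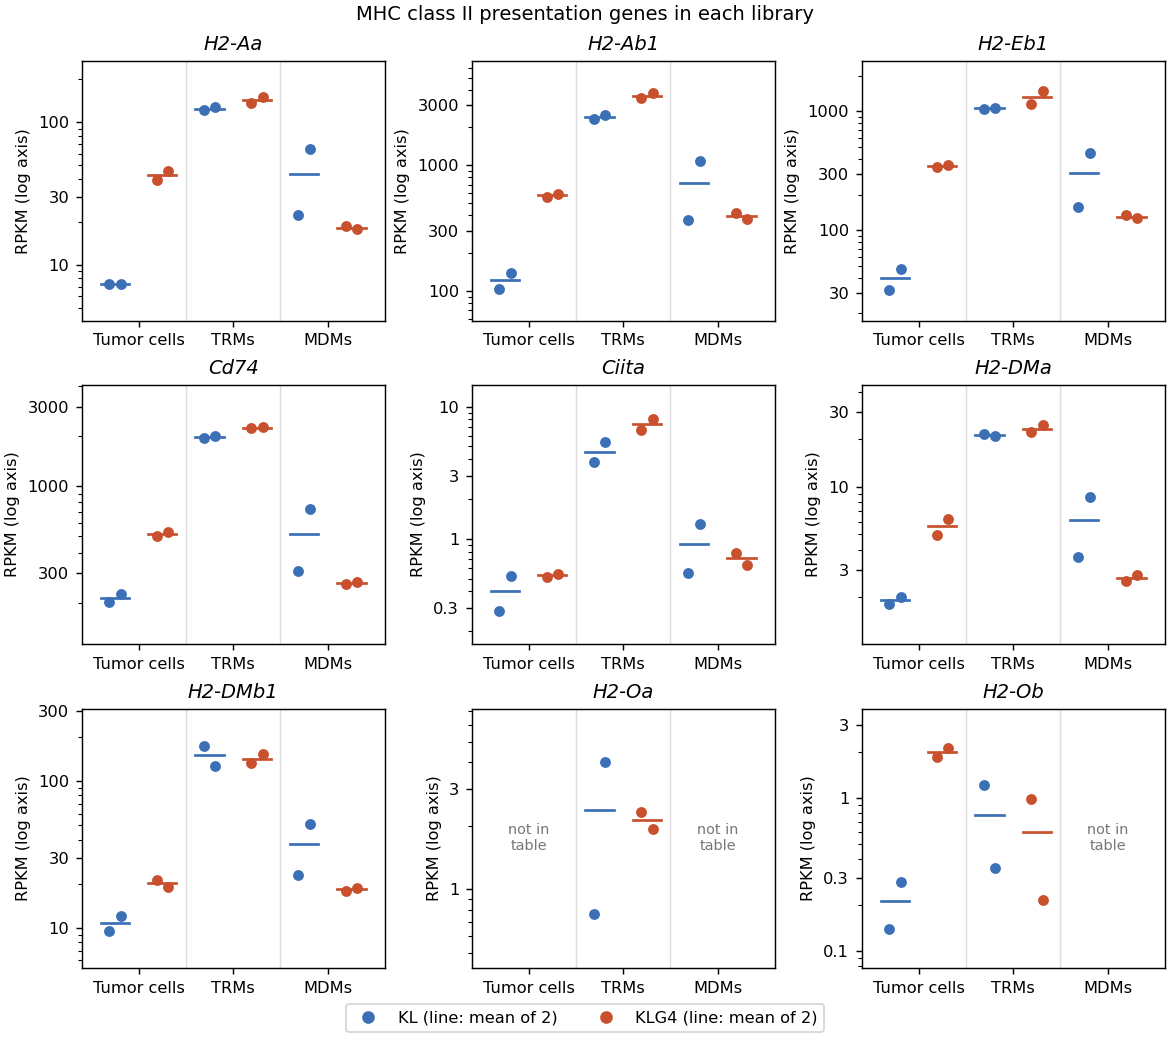
RPKM of each of the 9 members (log axis, a scale of its own in each panel) in tumor cells, TRMs and MDMs. Points are single libraries, KL in blue and KLG4 in red, lines are means of 2 libraries, and a population is marked where its table does not list the gene. TRMs are highest for the 7 members that all tables list, KLG4 tumor cells stand above KL tumor cells for 7 members, and 1 of the 2 KL MDM libraries stands above the other 3 MDM libraries.

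In tumor cells the class II chains, Cd74 and both H2-DM subunits were higher in KLG4 than in KL. Of the 8 members in the table, 6 were above 1 RPKM in all 4 libraries, and 6 of these 6 were called higher, where 20.6% of all 13770 genes tested were called higher and 19.6% lower. For these 6 both KLG4 libraries stood above both KL libraries, as for 32.5% of the genes that passed the filter. Their median difference was 1.88, against -0.09 for all genes tested. The 6 are not all members: H2-Ob passed the filter through its KLG4 libraries alone, so that its call is no support, and Ciita stayed below 1 RPKM. Mitochondrial genes took 7.38% and 8.26% of reads in KL and 14.8% and 14.7% in KLG4 tumor cells, and after rescaling to the other reads the 6 were again called, with differences from 1.02 for H2-DMb1 to 3.27 for H2-Eb1.

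H2-Aa, the alpha chain of I-A, measured 7.30 and 7.36 RPKM in KL tumor cells and 39.3 and 45.1 RPKM in KLG4 tumor cells. The groups did not overlap, and both KLG4 libraries exceeded both KL libraries by far more than libraries of a genotype differed. The difference was 2.51 (SE 0.13, 5.68-fold, adjusted p = 0.000276, limma). H2-Ab1, the beta chain of I-A and the most abundant chain of the family, was at 104 and 140 RPKM in KL and at 562 and 588 RPKM in KLG4. The KL libraries were again the low ones, with a difference of 2.25 (SE 0.17, 4.76-fold, adjusted p = 0.000595, limma). H2-Eb1, the beta chain of I-E, was at 31.4 and 47.4 RPKM in KL and at 340 and 351 RPKM in KLG4. Its difference, 3.16 (SE 0.21, 8.94-fold, adjusted p = 0.000449, limma), was the largest point estimate among the members in tumor cells.

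Cd74 was the most abundant member in KL tumor cells, at 202 and 226 RPKM, and was at 502 and 528 RPKM in KLG4 tumor cells. The groups were separate, and the difference was 1.27 (SE 0.12, 2.41-fold, adjusted p = 0.0011, limma). H2-DMa, the alpha subunit of the peptide editor, was at 1.81 and 2.01 RPKM in KL and at 4.97 and 6.28 RPKM in KLG4, with a difference of 1.499 (SE 0.20, adjusted p = 0.00334, limma). Its partner H2-DMb1 was at 9.56 and 11.98 RPKM in KL and at 21.3 and 19.1 RPKM in KLG4. H2-DMb1 had the smallest difference of those called, 0.91 (SE 0.16, 1.87-fold, adjusted p = 0.00947, limma). It missed the threshold without KLG4 replicate 1, at 0.83, and in the limma fit over the 12 libraries, at 0.91 (adjusted p = 0.077). H2-DMb1 and the neighbouring H2-DMb2 are near-identical copies, and reads may be split between them; H2-DMb2 was at 0.894 and 1.02 RPKM in KL and at 5.30 and 4.996 RPKM in KLG4 tumor cells, a difference of 2.31 (SE 0.19).

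H2-Ob, the beta subunit of the H2-DM inhibitor and known mainly from B cells and some dendritic cells, was scarce. It was at 0.139 and 0.283 RPKM in KL, from 16 and 27 reads, and at 1.85 and 2.13 RPKM in KLG4, from 103 and 107 reads. The KLG4 libraries were the higher ones, by 2.79 (SE 0.32) on the log2 scale, which is given as a description because a gene below 1 RPKM in both KL libraries entered the test only where KLG4 was higher. Ciita was at 0.286 and 0.522 RPKM in KL tumor cells and at 0.518 and 0.538 RPKM in KLG4 tumor cells, from 45 to 83 reads. These ranges overlap. Ciita was not tested under the filter, and in the limma fit without a filter its difference was 0.36 (SE 0.31, adjusted p = 0.397). No change of Ciita was called, and a change near the size of that SE could not be told from 0. An unequal change of Ciita and its targets was not tested.

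**Figure D2:**
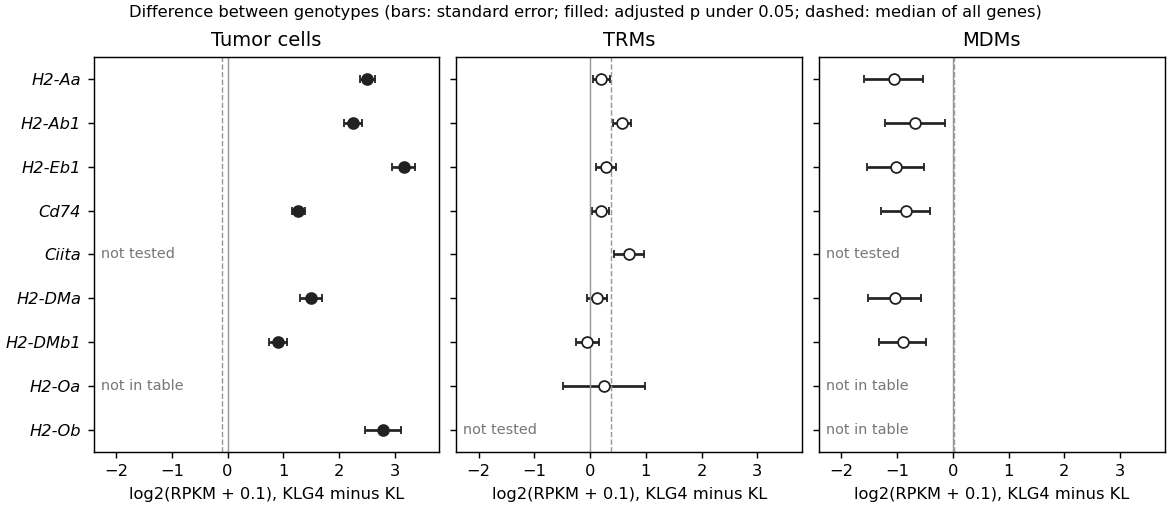
Difference between genotypes of each member, KLG4 minus KL on the log2(RPKM + 0.1) scale, in tumor cells, TRMs and MDMs, with bars for the standard error of the limma fit. Filled points were called at an adjusted p under 0.05, the dashed line is the median of all genes tested, at -0.09 in tumor cells, 0.38 in TRMs and 0.02 in MDMs. The 7 members tested in tumor cells lie between 0.91 and 3.16, and the 6 in MDMs lie between -1.06 and -0.67 with wide bars.

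Markers of other cell types moved with the class II genes in tumor cells, and in bulk samples more cells of a type and more RNA per cell cannot be told apart. Ptprc, the gene of CD45, was at 0.834 and 2.06 RPKM in KL and at 26.7 and 27.4 RPKM in KLG4 tumor cells, although the sort was designed to leave CD45+ cells out. Marker genes below 1 RPKM in both KL libraries entered the test through the KLG4 libraries alone, so counts are given for the others. Of the 9 leukocyte markers 8 reached 1 RPKM in a KL library, and 8 of these were called higher in KLG4, beside 20.6% of all genes tested. The summed levels of the 9 were 28.2 to 40.6 RPKM in KL and 313 to 325 RPKM in KLG4. The 8 dendritic cell markers in the table summed to 2.68 and 4.19 RPKM in KL and to 34.4 and 34.6 RPKM in KLG4, and 6 of the 7 tested had entered through KLG4 alone, all but Batf3. Xcr1, which marks the dendritic cells specialised in cross-presentation, was at 0.110 and 0.163 RPKM in KL and at 2.89 and 2.89 RPKM in KLG4. The 8 B cell markers in the table summed to 0.967 and 1.15 RPKM in KL and to 7.17 and 7.16 RPKM in KLG4, and all 3 tested had entered through KLG4 alone. Ms4a1, a defining B cell gene, was listed at 0 in KL replicate 2.

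Macrophage markers were higher as well in their summed levels. Of the 9 alveolar macrophage markers that reached 1 RPKM in a KL library 5 were called higher, beside 20.6% of all genes tested. The others, Pparg (-0.64), Fabp4 (-0.29), Krt79 (-0.22) and Plet1 (-0.22), had estimates below 0 and were not called. The alveolar sums over 10 genes were 80.7 to 94.6 RPKM in KL and 428 to 434 RPKM in KLG4. Of the monocyte-derived macrophage markers that reached 1 RPKM in a KL library 4 of 4 were called higher. Their sums over the 9 genes in the table were 6.23 to 8.05 RPKM in KL and 80.8 to 84.8 RPKM in KLG4. The 10 T cell markers summed to 1.60 to 1.89 RPKM in KL and 42.3 to 46.1 RPKM in KLG4, the 8 fibroblast markers to 14.1 to 19.6 and 491 to 503 RPKM, and the 5 endothelial markers in the table to 5.82 to 9.67 and 13.6 to 13.8 RPKM. All 10 AT2 markers and all 7 epithelial markers were called lower, as were 19.6% of all genes tested. The part of these cells in the class II result was not tested.

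The ratio of H2-Ab1 to Ptprc is given as a description. Ptprc was close to 1 RPKM in KL tumor cells, and any gene that rose less than Ptprc is lower on this ratio in KLG4. H2-Ab1 was 125 and 67.7 times the level of Ptprc in the KL tumor cell libraries and 21.0 and 21.5 times in the KLG4 ones. In TRMs it was 74.8 and 59.0 times Ptprc in KL and 46.0 and 50.7 times in KLG4. In MDMs it was 3.55 and 11.5 times Ptprc in KL and 3.78 and 3.51 times in KLG4.

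**Figure D3:**
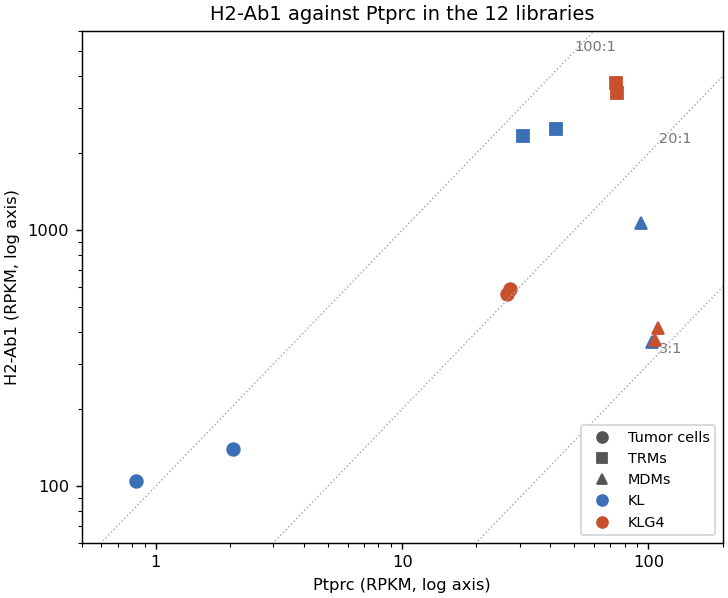
H2-Ab1 against Ptprc (RPKM, both axes log) in the 12 libraries, with circles for tumor cells, squares for TRMs and triangles for MDMs, KL in blue and KLG4 in red, and dotted lines at fixed ratios of 3, 20 and 100. The KL tumor cells lie far to the left near the line at 100, the KLG4 tumor cells near the line at 20, and 3 of the 4 MDM libraries just above the line at 3.

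The members did not all keep their proportions between genotypes in tumor cells. Cd74 was at 194% and 161% of the H2-Ab1 level in KL and at 89.3% and 89.9% in KLG4 tumor cells, where the 8 macrophage libraries reached at most 84.4%. H2-Eb1 went the other way, from 30.1% and 34.0% of H2-Ab1 in KL to 60.5% and 59.8% in KLG4, with the macrophage libraries between 32.3% and 45.4%. H2-DMb1 was at 9.17% and 8.57% of H2-Ab1 in KL and 3.79% and 3.25% in KLG4, and Ciita at 0.274% and 0.374% in KL and 0.0921% and 0.0916% in KLG4. H2-DMa was at 1.74% and 1.44% in KL and 0.884% and 1.07% in KLG4, and H2-Ob at 0.133% and 0.203% in KL and 0.329% and 0.363% in KLG4. For these 6 genes the 2 KL values and the 2 KLG4 values did not overlap. Any gene that rose less than H2-Ab1 is lower on this ratio in KLG4, and the share of all genes that separate on it was not counted. The ratios are descriptions and were not tested. H2-Aa stayed within 3.95% and 7.68% of H2-Ab1 in all 12 libraries, a span of 1.95-fold, whereas H2-Ob spanned 63.1-fold over the 8 libraries that list it.

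**Figure D4:**
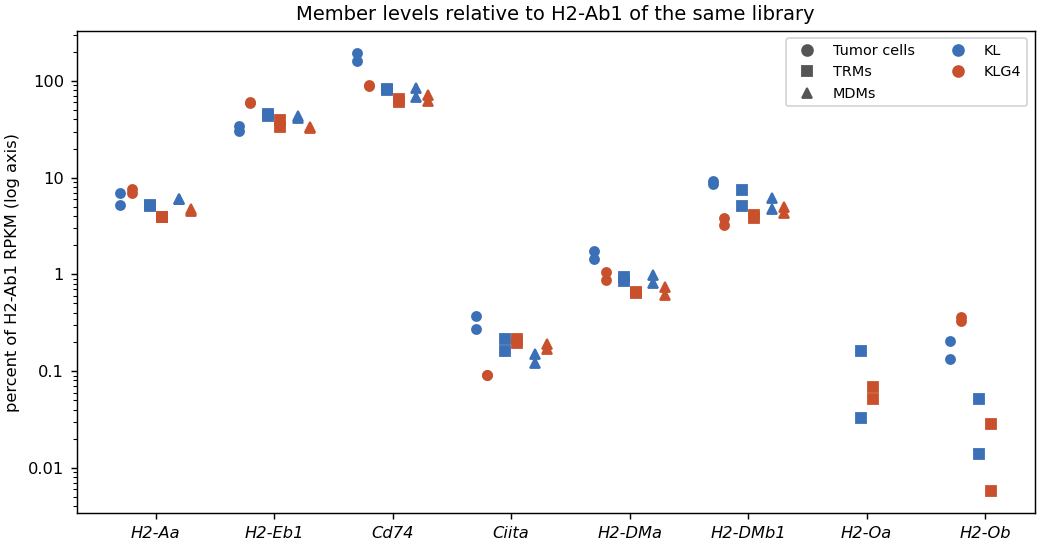
Level of each other member as percent of the H2-Ab1 RPKM of the same library (log axis), with circles for tumor cells, squares for TRMs and triangles for MDMs, KL in blue and KLG4 in red. H2-Aa keeps to a narrow band from 3.95% to 7.68%, Cd74 reaches 194% in KL tumor cells, H2-Eb1 is highest in KLG4 tumor cells, and H2-Ob is higher in tumor cells than in TRMs.

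In TRMs no member was called. H2-Ab1 was at 2326 and 2495 RPKM in KL and at 3427 and 3756 RPKM in KLG4 and H2-Eb1 was at 1056 and 1075 RPKM in KL and at 1150 and 1473 RPKM in KLG4. Cd74 was at 1938 and 2014 RPKM in KL and at 2240 and 2254 RPKM in KLG4. For these 3 genes, and for H2-Aa, H2-DMa and Ciita, both KLG4 libraries stood above both KL libraries. That makes 6 of the 8 members that passed the filter, where 53.7% of all genes that passed it did so. Of the 8 members tested by limma, 0 had an adjusted p under 0.05 and 2 an unadjusted p under 0.05, with 1.8% and 28.3% of all 10990 genes. H2-Ab1 had a difference of 0.57 (SE 0.16, adjusted p = 0.099) and Ciita, at 3.79 and 5.35 RPKM in KL and 6.70 and 8.11 RPKM in KLG4, one of 0.70 (SE 0.27, adjusted p = 0.163). H2-Aa was at 121 and 127 against 135 and 149 RPKM, a difference of 0.20 (SE 0.15), H2-DMa at 21.8 and 21.1 against 22.2 and 24.6 RPKM, 0.12 (SE 0.17), and H2-DMb1 at 174 and 126 against 132 and 154 RPKM, -0.06 (SE 0.21). The H2-O subunits were low and scattered: H2-Oa was at 0.761 and 3.996 RPKM in KL and 2.33 and 1.94 RPKM in KLG4, and H2-Ob at 1.21 and 0.347 RPKM in KL and 0.983 and 0.216 RPKM in KLG4, and neither separated the genotypes.

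The members' median difference in TRMs was 0.22, below the median of 0.38 over all genes tested. Mitochondrial genes took 31.5% and 22.3% of reads in KL TRMs and 2.95% and 5.78% in KLG4 TRMs, and rescaling to the other reads brought the median of all genes to 0 and that of the members to -0.19. H2-Aa, H2-Eb1, Cd74, H2-DMa and H2-Oa then turned below 0. Without KL replicate 2, H2-Oa (1.37) and Ciita (0.94) passed the threshold, 2 of the 8 members tested beside 24.6% of all genes. KL was then 1 library and only the KLG4 pair gave the spread, so that these calls are no support. Xist, which only cells with an inactive X chromosome express, measured 0.257 and 0.501 RPKM in KL and 18.3 and 20.2 RPKM in KLG4 TRMs, so sex and genotype cannot be told apart there. The 8 dendritic cell markers in the TRM table summed to 13.4 and 19.7 RPKM in KL TRMs and to 35.8 and 47.5 RPKM in KLG4 TRMs, and their part was not tested.

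In MDMs the members were lower in KLG4 by point estimate, and the result turned on 1 library. H2-Ab1 was at 367 and 1072 RPKM in KL and at 415 and 374 RPKM in KLG4, so that KL replicate 1 lay below both KLG4 libraries. H2-Aa was at 22.3 and 64.8 RPKM in KL and at 18.6 and 17.7 RPKM in KLG4. H2-Eb1 was at 158 and 443 RPKM in KL and at 134 and 126 RPKM in KLG4. In each of them KL replicate 2 was the high library, with the other 3 close together. Cd74 was at 310 and 728 RPKM in KL and at 260 and 268 RPKM in KLG4, H2-DMa at 3.58 and 8.69 RPKM in KL and 2.55 and 2.76 RPKM in KLG4, and H2-DMb1 at 22.9 and 51.2 RPKM in KL and 17.9 and 18.7 RPKM in KLG4. Ciita, at 0.554 and 1.28 RPKM in KL and 0.781 and 0.636 RPKM in KLG4, overlapped and was not tested.

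Both KLG4 libraries stood below both KL libraries for 5 of the 6 members that passed the filter in MDMs, where 19.1% of all genes that passed it did so. The 6 members tested by limma differed by -1.06 to -0.67, with SE of 0.42 to 0.54 and adjusted p of 0.679 to 0.704. Of these 6 members 0 were called, 0% of all 10475 genes were, and 0 of the 6 had an unadjusted p under 0.05, as 6.74% of all genes did. The median of the 6 was -0.96. It was -0.29 with KL replicate 2 left out and -1.58 with KL replicate 1 left out. In the latter fit 6 of the 6 passed the threshold, as did 25.5% of all genes, but KL was then the 1 library that stood apart and only the KLG4 pair gave the spread, so that these calls are no support. KL replicate 2 also stood apart in the summed markers of monocyte-derived macrophages, at 356 RPKM against 88.2 to 129 RPKM in the other 3 MDM libraries, in C1qa, a complement gene of macrophages, at 92.7 against 16.0 to 24.4 RPKM, in AT2 markers, at 396 against 43.1 to 165 RPKM, in the mitochondrial share of reads, at 7.31% against 0.921% to 2.76%, and in Xist, at 0.839 against 19.4 to 21.8 RPKM. The part of this library's makeup in the class II levels was not tested.

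Whether the KLG4 effect differed between populations was tested in 1 limma fit over the 12 libraries and 11504 genes, in which 7 members were tested; the tables had been scaled separately by total counted reads. The effect in tumor cells exceeded that in MDMs for 6 of the 7, all but Ciita, where 9.87% of all genes were called above 0. The largest of these differences was that of H2-Eb1, 4.19 (SE 0.55, adjusted p = 0.00091), and the smallest that of H2-DMb1, 1.81 (SE 0.46, adjusted p = 0.0278). Leaving out a library left between 4 and 6 of them called. Against TRMs, the effect in tumor cells was larger for 2 of the 7, H2-Eb1 at 2.87 (SE 0.55, adjusted p = 0.00705) and H2-Aa at 2.31 (SE 0.53, adjusted p = 0.0143), where 8.01% of all genes were called above 0. That count was 1 without tumor cell KLG4 replicate 2 or without TRM KLG4 replicate 1, and 6 without MDM KL replicate 1 or MDM KL replicate 2, which enter this contrast through the shared spread only. Between TRMs and MDMs 0 of the 7 were called in limma and 5 had an unadjusted p under 0.05, with 0.209% of all genes called above 0 and 18.4% at that unadjusted p, and 6 were called without MDM KL replicate 1.

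The factors that bind class II promoters were measured in a list of 7 genes (Rfx5, Rfxap, Rfxank, Nfya, Nfyb, Nfyc and Creb1). In tumor cells 0 of the 7 were called higher and 1 lower, where 20.6% and 19.6% of all genes were. The gene called was Nfyb, an NF-Y subunit, at 23.3 and 21.1 RPKM in KL and 15.5 and 15.8 RPKM in KLG4 (difference -0.50, SE 0.13, adjusted p = 0.0266). The median of the list was -0.12, near that of all genes, and the call of Nfyb was lost without either KLG4 library and under 4 other settings. Rfx5, the DNA-binding RFX subunit, was at 4.79 and 6.98 RPKM in KL and 4.54 and 5.71 RPKM in KLG4 tumor cells, ranges that overlap. In TRMs and MDMs 0 of 7 were called by limma, with 3 and 0 at an unadjusted p under 0.05, where 28.3% and 6.74% of all genes were.

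The interferon gamma route, which induces Ciita, was measured in 7 genes. In tumor cells 5 of the 7 were called higher, beside 20.6% of all genes: the receptor chain Ifngr1 at 16.7 and 17.3 RPKM in KL and 41.7 and 46.2 RPKM in KLG4 (1.36, SE 0.12), the kinases Jak2 (1.90, SE 0.11) and Jak1 (0.88, SE 0.13), the transcription factor Irf1 (0.97, SE 0.12) and the feedback inhibitor Socs1 (2.08, SE 0.30), which passed the filter through its KLG4 libraries alone. The receptor chain Ifngr2 (0.06, SE 0.13) was among those that did not pass. The median of the 6 others was 0.93, with 4 of the 6 called, and the count over the list was 3 without KLG4 replicate 1 or replicate 2, when 15.7% and 14.8% of all genes were called in either direction, and 3 in the fit over the 12 libraries. In TRMs 1 of the 6 tested was called, beside 1.8% of all genes, Jak2 at 14.5 and 14.7 RPKM in KL and 32.5 and 46.9 RPKM in KLG4 (1.41, SE 0.23, adjusted p = 0.0485), and the count ran from 0 to 2 over the libraries left out. In MDMs 0 of the 6 tested were called by limma and 0 had an unadjusted p under 0.05, beside 0% and 6.74% of all genes.

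Endosomal processing genes, the proteases and the reductase that prepare the invariant chain and antigens, were 8 in number. In tumor cells 5 of 8 were called higher, beside 20.6% of all genes, with a median of 0.59. Ctss, the cathepsin that cleaves the invariant chain in most antigen-presenting cells, was at 29.3 and 49.6 RPKM in KL and 273 and 271 RPKM in KLG4, a difference of 2.83 (SE 0.25, adjusted p = 0.000962). Lgmn, the asparaginyl endopeptidase, differed by 1.11 (SE 0.15), Ctsz by 0.91 (SE 0.11), Ifi30, the thiol reductase GILT, by 0.72 (SE 0.11) and Ctsb by 0.47 (SE 0.11). Of the cathepsins that did not pass, Ctse differed by -0.87 (SE 0.29, adjusted p = 0.0638, limma), with both KLG4 libraries below both KL libraries, Ctsl by -0.12 (SE 0.24) and Ctsd by 0.26 (SE 0.13). The count in either direction was 3 in the fit over the 12 libraries, 2 without KLG4 replicate 2, 3 without KLG4 replicate 1 and 8 without KL replicate 1, when 48.8% of all genes were called. In TRMs 0 of the 7 tested were called by limma, though 1 was with a pseudocount of 1, 3 with a filter at a mean of 5 RPKM and 4 in the fit over the 12 libraries, and 7 had an unadjusted p under 0.05, as 28.3% of all genes did, with a median of 0.71 against 0.38 for all genes, and the list's median became 0.32 after rescaling to reads outside mitochondrial genes. Ctss was at 3675 and 4322 RPKM in KL TRMs and 6262 and 5230 RPKM in KLG4 TRMs (0.52, SE 0.19, adjusted p = 0.148). In MDMs 0 of 8 were called by limma and 0 had an unadjusted p under 0.05, beside 0% and 6.74% of all genes, with Ctss at 1325 and 1823 RPKM in KL and 1283 and 902 RPKM in KLG4.

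The paralogs H2-DMb2 and H2-Eb2 were in the tumor cell table, and H2-Ea-ps, the defective I-E alpha gene, was in no table. H2-DMb2 was called higher in KLG4 tumor cells. H2-Eb2 was at 0.0989 and 0.120 RPKM in KL and at 2.08 and 1.45 RPKM in KLG4, a difference of 3.14 (SE 0.29), and passed the filter through its KLG4 libraries alone. Neither paralog was called in TRMs, where H2-DMb2 was at 19.8 and 25.3 RPKM in KL and 17.8 and 22.3 RPKM in KLG4. H2-DMb2 was not called in MDMs, at 2.93 and 8.96 RPKM in KL and 1.75 and 2.85 RPKM in KLG4, where KL replicate 2 was again the high library.

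A list of 7 genes that accompany class II on antigen-presenting cells is called costimulatory here. It includes Cd274 and Pdcd1lg2, whose products are inhibitory ligands of PD-1. All 7 lay higher in both KLG4 tumor cell libraries than in both KL ones, as did 32.5% of the genes that passed the filter. Cd40, Cd80, Cd86, Icosl and Pdcd1lg2 were below 1 RPKM in both KL libraries, so that 5 of the 7 passed the filter through the KLG4 libraries alone and had to differ. The other 2, Cd274 and Cd83, were called higher, beside 20.6% of all genes, and 2 were called without either KLG4 library. Cd86, a ligand of CD28, was at 0.0895 and 0.361 RPKM in KL and at 6.11 and 6.42 RPKM in KLG4, a difference of 4.43 (SE 0.44). Cd274, the gene of PD-L1, was at 2.87 and 6.35 RPKM in KL and at 48.8 and 50.9 RPKM in KLG4 (3.51, SE 0.36). Cd80 differed by 3.899 (SE 0.32), Cd83 by 3.88 (SE 0.29), Pdcd1lg2, the gene of PD-L2, by 3.32 (SE 0.34), Icosl by 3.30 (SE 0.30) and Cd40 by 3.26 (SE 0.26). In TRMs 1 of 7 was called, beside 1.8% of all genes, Cd274 at 61.0 and 70.5 RPKM in KL and 182 and 144 RPKM in KLG4 (1.30, SE 0.19, adjusted p = 0.0446), and in MDMs 0 of 7, with 0 at an unadjusted p under 0.05 in limma, beside 0% and 6.74% of all genes.

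Class I presentation genes, which serve CD8+ T cells and are made by nearly all cells, were 9 in number, and in tumor cells 7 of 9 were called higher, beside 20.6% of all genes. Nlrc5 and Psmb9 passed the filter through their KLG4 libraries alone, and of the 7 others 5 were called, with a median of 0.52. B2m, the light chain of class I, was at 56.1 and 49.6 RPKM in KL and 142 and 144 RPKM in KLG4 (1.44, SE 0.12), and Nlrc5, the class I counterpart of Ciita, at 0.334 and 0.487 RPKM in KL and 2.64 and 2.61 RPKM in KLG4 (2.43, SE 0.25). The immunoproteasome genes Psmb9 (1.27, SE 0.23) and Psmb8 (0.72, SE 0.13), the peptide transporter genes Tap1 (0.95, SE 0.18) and Tap2 (0.52, SE 0.13) and the heavy chain H2-D1 (0.52, SE 0.11) were called as well. H2-K1 (0.19, SE 0.11) and Tapbp (-0.06, SE 0.12) did not pass. The count was 1 without either KLG4 library, in the fits that called 15.7% and 14.8% of all genes, and 2 in the fit over the 12 libraries. In TRMs and MDMs 0 of 9 were called by limma, with 4 and 0 at an unadjusted p under 0.05, shares to be read against the 28.3% and 6.74% of all genes.

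The few calls of these lists in macrophages depended on scaling, on other settings of the fit and on single libraries. Leaving out a library leaves 1 library in its group, which is assumed to vary like the pair of the other group, and the calls of such fits show only how far a count moved. Those of Jak2 and Cd274 in TRMs were lost with quantile scaling, with median of ratios scaling, with rescaling to reads outside mitochondrial genes, without a mean-variance trend, and without KL replicate 1, and that of Jak2 also with a pseudocount of 0.01, without a filter and without KLG4 replicate 2. With a pseudocount of 1, a filter at a mean of 5 RPKM or the fit over the 12 libraries the interferon gamma route held 2 calls in TRMs. Without TRM KL replicate 2 there were 2 calls in the interferon gamma route and 3 each among endosomal processing, costimulatory and class I genes, in a fit that called 24.6% of all genes. Without TRM KLG4 replicate 2 there were 0, 2 and 2 calls among interferon gamma, endosomal processing and class I genes, and without TRM KLG4 replicate 1 there were 1 and 2 among endosomal processing and costimulatory genes. Without MDM KL replicate 1 each of these 4 lists held 3 calls in MDMs, and H2-DMb2 was called too, in a fit that called 25.5% of all genes where none was called with that library.

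The genes whose pattern was most like that of the chains and Cd74 were sought over the 12 libraries among 10782 genes, as the root mean square difference between a gene's log2 levels, centred on its own mean, and the mean centred profile of H2-Aa, H2-Ab1, H2-Eb1 and Cd74. The median gene differed by 1.70. The 4 genes that define the profile differed by 0.14 to 0.37, and of the other members H2-DMa differed by 0.30, H2-DMb1 by 0.45 and Ciita by 0.63, which placed Ciita 90th. The nearest gene outside the members was the paralog H2-DMb2, at 0.24. It was followed by Amz1, a metallopeptidase gene, at 0.33, Ccdc88a, which encodes the actin-binding protein girdin, at 0.35, Olfm1, which encodes a secreted olfactomedin, at 0.41, Fcgrt, the neonatal Fc receptor, at 0.41, and Trerf1, a transcriptional regulator, at 0.41.

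Ch25h, which makes 25-hydroxycholesterol, differed by 0.42, Slamf9, a surface receptor of the SLAM family, by 0.43, Slc29a1, a nucleoside transporter, by 0.43, and Slc8a1, a sodium-calcium exchanger, by 0.44. Fcgrt illustrates the shared pattern: it was at 1.33 and 1.43 RPKM in KL and 12.99 and 14.2 RPKM in KLG4 tumor cells, between 39.6 and 50.6 RPKM in TRMs, and at 2.95 and 13.4 RPKM in KL and 5.001 and 4.95 RPKM in KLG4 MDMs, again highest in KL replicate 2. The 10 genes share libraries and were selected for their likeness over those libraries.

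By position, the H2 members lie in the class II region of chromosome 17 (GRCm38), from H2-Oa (34092340 to 34095234) to H2-Eb1 (34305867 to 34316674), Ciita lies on chromosome 16 (10480059 to 10528418) and Cd74 on chromosome 18 (60803848 to 60812652). Reads were counted over exons without regard to strand, so overlapping genes on the other strand could add reads. In the annotation the antisense gene BC051537 covers 22.8% of the exonic bases of H2-Oa, other genes cover 10.4% of those of H2-DMa, and Dexi covers 3.45% of those of Ciita. H2-Aa, H2-Ab1, H2-Eb1, H2-DMb1 and H2-Ob have no exonic base covered by another gene.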

How the data were processed

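Bulk RNA sequencing of tumor cells, TRMs and MDMs (2 KL and 2 KLG4 libraries each) was used, and another 5 of the 17 samples were not analysed here. Groups and replicate numbers came from the sample titles. Per the labels and the study's methods, paired reads were trimmed (Trim Galore 0.6.4), aligned to GRCm38 (HISAT2 2.0.5) and counted per gene without strand (featureCounts 2.0.0), and the authors deposited RPKM per gene in a table for each population. RPKM were scaled to all counted reads, so a large share of mitochondrial reads lowers every other gene. The authors' deposited fold changes, p-values and test statistics were not used. Depth was recovered from RPKM and gene length, which gave whole reads (within 0.05) for 100% of genes under 2000 reads. Of counts under 30, 17.4% to 32.5% were odd, so that mates of a pair were mostly counted as separate reads and counting error exceeds that of the read numbers.

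Each table was tested alone with limma 3.58.1 (R 4.3.3; log2(RPKM + 0.1), mean-variance trend, two-sided, no covariate) because RPKM are not counts. Populations were compared in a joint limma fit. Levels were summarised with Python 3.11.15, pandas 2.3.3 and numpy 2.4.6, and plotted with matplotlib 3.10.9. The scripts were tested on simulated data. The members and lists were chosen with earlier results of these data known. All members were named, list genes where they were called with separate groups or were partners of members, 10 genes by likeness, and Xist, Ccr2, Xcr1, C1qa and Ms4a1 after their values were seen; list members that did not pass were named where a short list left few. Some items are not reported here. Alternatives covered the pseudocount (1 and 0.01), the filter, scaling (quantile, median of ratios, reads outside mitochondrial genes), no trend, a block for the replicate number, weights for groups, the joint fit, and leaving out each library.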

Additional observations from a re-analysis of the deposited data

Results flagged for a closer look

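The KLG4 effect on 6 members differed between tumor cells and MDMs in the joint limma test, with opposite point estimates in the 2 populations: H2-Eb1 by 4.19, H2-Aa by 3.57, H2-Ab1 by 2.92, H2-DMa by 2.55, Cd74 by 2.12 and H2-DMb1 by 1.81 on the log2 scale (tumor cells minus MDMs). Leaving out an MDM KL library moved these values: over all libraries left out H2-Eb1 ran from 3.45 to 4.93, H2-Aa from 2.80 to 4.34, H2-Ab1 from 2.15 to 3.70, H2-DMa from 1.92 to 3.17, Cd74 from 1.502 to 2.73 and H2-DMb1 from 1.23 to 2.39, and without MDM KL replicate 2 the estimate of H2-Ab1 in MDMs was 0.10, no longer opposite. Between tumor cells and TRMs it differed for H2-Eb1, by 2.87, and for H2-Aa, by 2.31. Groups of 2 libraries were too small for a search for single outlying libraries.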

How the results depend on the processing

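The count of 7 members called in tumor cells, H2-Ob included, was between 5 and 7 under every alternative, those that leave out a library included, and the count of 6 for tumor cells against MDMs was between 4 and 6. The count of 2 for tumor cells against TRMs became 6 with median of ratios scaling or a weight for each group, 4 with scaling to reads outside mitochondrial genes, and 1 to 6 over the libraries left out. Leaving out a library gave 0 to 2 members in TRMs, 0 to 6 in MDMs and 0 to 6 for TRMs against MDMs; the cause was not tested. In TRMs the sign turned for H2-Aa (-0.014 with quantile, -0.19 with median of ratios and -0.19 with scaling outside mitochondrial genes), H2-DMa (-0.23, -0.27 and -0.27) and H2-Oa (-0.25, -0.12 and -0.12), and with the latter pair of scalings for H2-Eb1 (-0.10 and -0.10) and Cd74 (-0.20 and -0.20). Over the libraries left out, H2-DMb1 in TRMs ran from -0.29 to 0.18, H2-Oa in TRMs from -0.88 to 1.37 and H2-Ab1 in MDMs from -1.45 to 0.10. The difference of Ciita between tumor cells and TRMs turned to 0.13 with median of ratios scaling and 0.14 outside mitochondrial genes, ran from -0.69 to 0.004 over the libraries left out, and for tumor cells against MDMs turned to -0.89 with quantile scaling. The libraries share only a replicate number (same-numbered libraries deviated from their group means with correlations over genes of 0.02 in tumor cells, -0.06 in TRMs and 0.05 in MDMs). The replicate block changed no call among the members: 7 in tumor cells, 0 in TRMs, 0 in MDMs, and 2, 6 and 0 for the differences; in TRMs it gave 1 call among endosomal processing and 2 among costimulatory genes. Quantile scaling moved the median of all genes from -0.09 to -0.25 in tumor cells, and the share of higher among called genes from 51.3% to 38.5% (61.5% with median of ratios), and in TRMs that share fell from 75.8% of 198 genes to 26.7% of 30 genes with median of ratios. Depth limits Ciita in tumor cells and MDMs and H2-Ob, which rest on few reads.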

Other observations

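H2-Aa and H2-Ab1 encode the partner chains of 1 heterodimer, yet the H2-Aa level per kilobase was only 3.95% to 7.68% of that of H2-Ab1 in each of the 12 libraries, with a median of 5.23%. H2-Aa was measured over 1874 bases in the deposited table, whereas the exons of the annotation cover 3798 bases, and H2-Ab1 over 1637 bases where the annotation covers 2568 bases. The reads behind H2-Aa ran from 417 to 6786 per library and those behind H2-Ab1 from 6253 to 150186. The cause of the gap was not tested.

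H2-DMa and H2-DMb1, the partner subunits of the peptide editor, showed a gap of the same kind, with H2-DMa at 0.615% to 1.74% and H2-DMb1 at 3.25% to 9.17% of H2-Ab1.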
